A study of Mus musculus with 20 samples.

Results

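Methylation of the neonatal liver was followed in 735 short stretches of the mouse genome that gained a large amount of methylation between birth and weaning in control offspring although few of their CpGs were measured. The autosomes were divided into bins of 200 bp, and a CpG was used when it had at least 10 reads in each of the 20 libraries. The methylation level of a bin was the percentage of methylated reads summed over its CpGs, and 153940 bins held at least 1 such CpG. Of these, 84292 bins held 2 to 7, and 735 of the 84292 (0.872%) had a Con-d21 mean at least 40 percentage points above the Con-d0 mean and are called members here. The members were thus chosen by the methylation of the 10 control libraries, and all control values below are given as a description. Among the members closest to the limit were those at Myog and Unc5a, with control gains of 40.03 and 40.06 points, and the first bins left out were at Srp9, St8sia1 and Gm16201, with 39.98, 39.97 and 39.93 points. The members were sparse in measured CpGs only, since they held a median of 5 CpGs in the reference sequence (range 2 to 30), and 140 of the 735 (19.05%) held more than 7.

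The data came from reduced representation bisulfite sequencing (RRBS), in which the enzyme MspI cuts the genome at CCGG and the fragment ends are sequenced after bisulfite has converted unmethylated cytosines. Whole-liver DNA of wild-type C57BL/6J offspring labelled male was read in 4 groups of 5 libraries, from 5 litters per group. AME-d21 and AME-d0 were the offspring of dams exposed to an adverse maternal environment, a Western diet from before mating through lactation combined with stress in late gestation, and Con-d21 and Con-d0 were the offspring of dams on control diet without stress. The d21 animals were fasted before collection and the d0 animals were delivered by caesarean section, so age cannot be told apart from these conditions, nor the diet from the stress. The members were compared between AME-d21 and AME-d0, which asked whether the same bins gain methylation in offspring whose libraries played no part in the choice, and between AME and control offspring at each age.

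AME-d21 replicate 4 and AME-d0 replicates 1 and 3 stood apart from the rest. AME-d21 replicate 4 had an X-chromosomal read count of 2.88 per 100 autosomal ones, where the remaining 19 libraries had 1.40 to 1.55, and 16.2 reads per 1000000 on the short arm of Y, where they had 168 to 216, which goes against its male label. AME-d0 replicates 1 and 3 had the lowest methylation of the d0 libraries, over the members (20.6% and 22.3%) and over the other bins with 2 to 7 CpGs. The libraries held 23248139 to 45769589 reads over CpGs. Summed over its CpGs, a member had a median of 91 reads per library (medians of single members 31.5 to 578), and no member had fewer than 20 in any library. A read that covers more than 1 CpG counts more than once in these sums. The calls and the median gain in AME offspring are also given without these 3 libraries. The counts between AME and control offspring at an unadjusted p are also given without those of the same age. Other values below use all 20 libraries unless stated.

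CpG methylation is written by DNA methyltransferases and removed passively at cell division or through oxidation by TET enzymes. In most tissues, CpG-poor DNA is highly methylated, and stretches of low or intermediate methylation in it often mark enhancers in use in some of the cells. The newborn mouse liver is a site of blood formation that disappears in the weeks after birth, while hepatocytes mature. In these bulk livers, fewer cells of an unmethylated type and a gain of methylation per cell cannot be told apart.

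To show what the members are made of, the sequences of 6 are printed below, on the plus strand of GRCm38, with the CpGs that were measured in capitals. They were taken from the members with the largest control gain, those in the genes with the most members and those near a transcription start site (TSS). RRBS reads the first bases from a CCGG, and the capitals stand close together. In Fignl2 and Mn1 most CpGs of the bin are in small letters, so these bins are CpG-dense by sequence, whereas the bin at Rai1 holds few other CpGs.
Fignl2, chr15:101053401-101053600: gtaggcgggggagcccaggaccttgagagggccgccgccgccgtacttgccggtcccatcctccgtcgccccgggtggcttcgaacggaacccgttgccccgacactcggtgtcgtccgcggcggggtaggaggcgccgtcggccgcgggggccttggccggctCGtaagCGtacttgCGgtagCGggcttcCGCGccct
Mn1 (bin 3), chr5:111420201-111420400: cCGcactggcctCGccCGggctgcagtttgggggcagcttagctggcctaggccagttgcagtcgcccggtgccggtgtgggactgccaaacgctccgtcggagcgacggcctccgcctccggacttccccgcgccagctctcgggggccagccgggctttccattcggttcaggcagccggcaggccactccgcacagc
Zfp703, chr8:26979601-26979800: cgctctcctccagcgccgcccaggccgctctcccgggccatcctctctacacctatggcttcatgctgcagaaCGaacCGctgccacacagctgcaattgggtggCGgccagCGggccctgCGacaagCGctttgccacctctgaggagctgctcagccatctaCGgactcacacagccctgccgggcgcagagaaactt
Nfix (bin 3), chr8:84772001-84772200: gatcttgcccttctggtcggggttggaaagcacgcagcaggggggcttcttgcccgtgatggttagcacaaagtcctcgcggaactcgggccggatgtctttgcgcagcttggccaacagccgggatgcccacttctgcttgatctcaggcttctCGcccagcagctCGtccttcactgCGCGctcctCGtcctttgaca
Gse1 (bin 4), chr8:120533001-120533200: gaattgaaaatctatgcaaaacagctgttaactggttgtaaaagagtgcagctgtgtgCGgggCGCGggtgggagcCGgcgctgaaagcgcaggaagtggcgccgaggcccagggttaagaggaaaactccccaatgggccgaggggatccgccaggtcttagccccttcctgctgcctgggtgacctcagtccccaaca
Rai1, chr11:60175201-60175400: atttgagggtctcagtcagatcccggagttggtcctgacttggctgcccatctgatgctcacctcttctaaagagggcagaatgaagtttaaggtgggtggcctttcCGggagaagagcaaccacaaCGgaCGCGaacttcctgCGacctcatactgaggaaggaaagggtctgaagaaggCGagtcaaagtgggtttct

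Averaged over the 735 members, methylation was 69.8%, 72.0%, 72.1%, 69.9% and 70.6% in the AME-d21 libraries, against 20.6%, 25.2%, 22.3%, 25.04% and 26.8% in the AME-d0 libraries. Every AME-d21 library lay far above every AME-d0 library, and the means were 70.9% ± 1.11 and 24.0% ± 2.48 (SD, n = 5 each). The control livers that chose the members had 71.8% ± 0.766 at d21 and 25.1% ± 1.87 at d0 (SD, n = 5 each). Over the other bins with 2 to 7 CpGs the averages were 60.7% ± 0.247 in AME-d21 and 53.3% ± 1.54 in AME-d0 (SD, n = 5 each). The members thus lay below the other bins at birth and above them at d21 in both kinds of offspring. Single members spread widely at birth: 62 had an AME-d0 mean under 10%, 614 had 10% to 40%, and at d21 the AME mean was over 50% in 710 members and over 90% in 26.

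**Figure D1:**
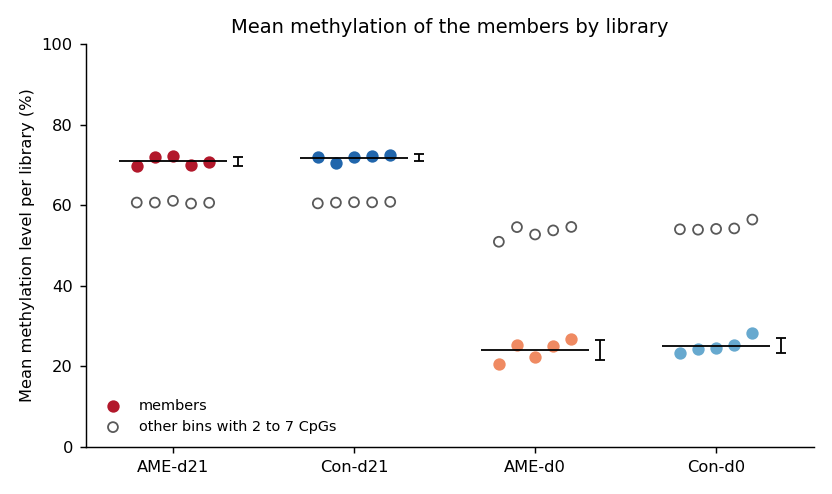
Mean methylation level of the 735 members (filled) and of the other bins with 2 to 7 CpGs (open) in each of the 20 libraries, in percent, by group. The black lines and bars give the mean and SD of the members over 5 libraries. The members average 70.9% in AME-d21 and 24.0% in AME-d0, on either side of the other bins.

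The gain was present in the AME offspring at every member. The AME-d21 mean was above the AME-d0 mean in all 735, by 22.7 to 70.8 points (median 46.6), where all bins with 2 to 7 CpGs had a median of 7.64 points and the control gain of the members had a median of 45.2. With limma on the log2 ratio of methylated to unmethylated reads, all 735 passed an adjusted p of 0.05 and 10 points in the direction of gain, against 33.5% of all autosomal bins and 36% of those with 2 to 7 CpGs. In the direction of loss 0 members passed, against 2.9% and 3.31%. The AME gain was at least 40 points in 612 members (83.3%) and at least 30 points in 727, where 1.15% of all bins and 1.17% of those with 2 to 7 CpGs reached 40 points. Every AME-d21 library lay above every AME-d0 library in 734 members (26.8% of all bins and 33.4% of those with 2 to 7 CpGs). The exception was an intergenic bin upstream of the selenoprotein gene Selenow (-11298 bp from its TSS), where the lowest AME-d21 library had 29.2% and the highest AME-d0 library had 33.3%.

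Leaving out AME-d21 replicate 4 gave 735 calls and a median gain of 46.6 points, leaving out AME-d0 replicates 1 and 3 gave 735 calls and 44.7 points, and leaving out all 3 gave 735 calls and 45.1 points. Of all autosomal bins, 32.3%, 23.5% and 22.7% were called higher in these refits. The gain was larger in AME than in control offspring in 366 members and smaller in 369, by up to 21.6 and 21.4 points, and in 673 members both were within 10 points. Just below the limit, the 1296 bins with a control gain of 30 to 40 points had a median AME gain of 35.3 points, so the limit of 40 points cuts a continuous distribution. Of the 985 bins with 2 to 7 CpGs that gained at least 40 points in AME offspring, 612 (62.1%) were members.

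**Figure D2:**
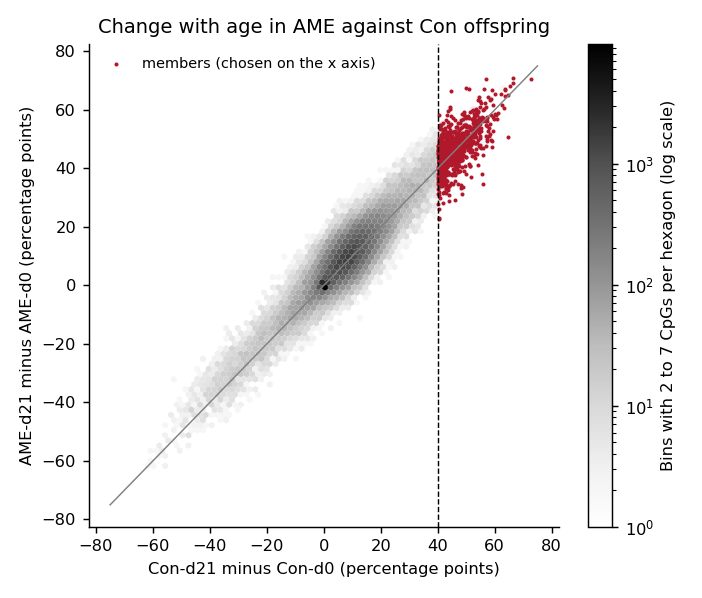
Change with age in AME offspring (vertical) against control offspring (horizontal) for the 84292 bins with 2 to 7 CpGs, in percentage points, as hexagons shaded by count on a log scale. The 735 members (red) lie right of the dashed line at 40 points by choice, and their AME gains run from 22.7 to 70.8 points around the line of equal change.

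The gain was shared by the CpGs within a member. The members held 2415 CpGs, which had 10 to 125 reads per library (median 33), and the AME-d21 mean was above the AME-d0 mean at each of them, by 10.05 to 79.8 points. Of the 2415, 2390 (98.96%) gained at least 20 points, and in 710 members all CpGs did. The largest and smallest gain within a member differed by a median of 10.7 points. CpGs of 1 member often lie on the same reads and are not independent.

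At Fignl2, which encodes a microtubule-severing ATPase of the fidgetin family, 6 CpGs in the coding exon 899 bp downstream of the TSS had the largest control gain. Methylation was 72.6%, 72.6%, 83.3%, 81.3% and 90.1% in AME-d21, against 4.17%, 12.5%, 6.16%, 10.4% and 14.3% in AME-d0. All 5 AME-d21 livers were thus highly methylated at a bin that was nearly unmethylated in all 5 AME-d0 livers, a log2 ratio 5.38 ± 0.42 (SE) higher (limma, adjusted p = 9.40e-07). The controls had 84.9% ± 4.22 at d21 and 12.0% ± 2.20 at d0 (SD, n = 5 each). The 6 CpGs printed in capitals gained 66.9 to 73.1 points in AME offspring.

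Mn1 encodes a transcriptional co-regulator and is a fusion partner in human myeloid leukaemia. The third of its members, in a coding exon 2858 bp from the TSS, had 76.5%, 76.1%, 73.3%, 70.8% and 69.7% in AME-d21, against 0.855%, 7.32%, 2.22%, 6.25% and 3.42% in AME-d0 (log2 difference 5.96 ± 0.40 SE, limma, adjusted p = 3.07e-07). At Zfp703, a zinc finger repressor of the nuclear NLZ family, 7 CpGs in a coding exon had 78.6%, 77.5%, 92.9%, 85.7% and 85.7% in AME-d21, against 8.04%, 14.6%, 21%, 13.6% and 23.2% in AME-d0. AME-d21 and AME-d0 libraries lay far apart at both genes. Tacc2, which encodes a centrosomal coiled-coil protein, had a member 135 bp from a TSS, in a bin that the gene model of Fgfr2 also covers, at 67.7% ± 7.34 in AME-d21 and 3.11% ± 1.79 in AME-d0 (SD, n = 5 each). Pura, which encodes a single-stranded nucleic acid binding protein, showed the largest AME gain, 70.8 points, at an intronic bin.

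A pair of adjoining members in an exon of the non-coding gene Gm12967 had intermediate levels at birth, with 91.1% ± 5.30 and 89.2% ± 6.47 in AME-d21, against 23.9% ± 8.95 and 28.7% ± 9.14 in AME-d0 for the first and the second (SD, n = 5 each).

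**Figure D3:**
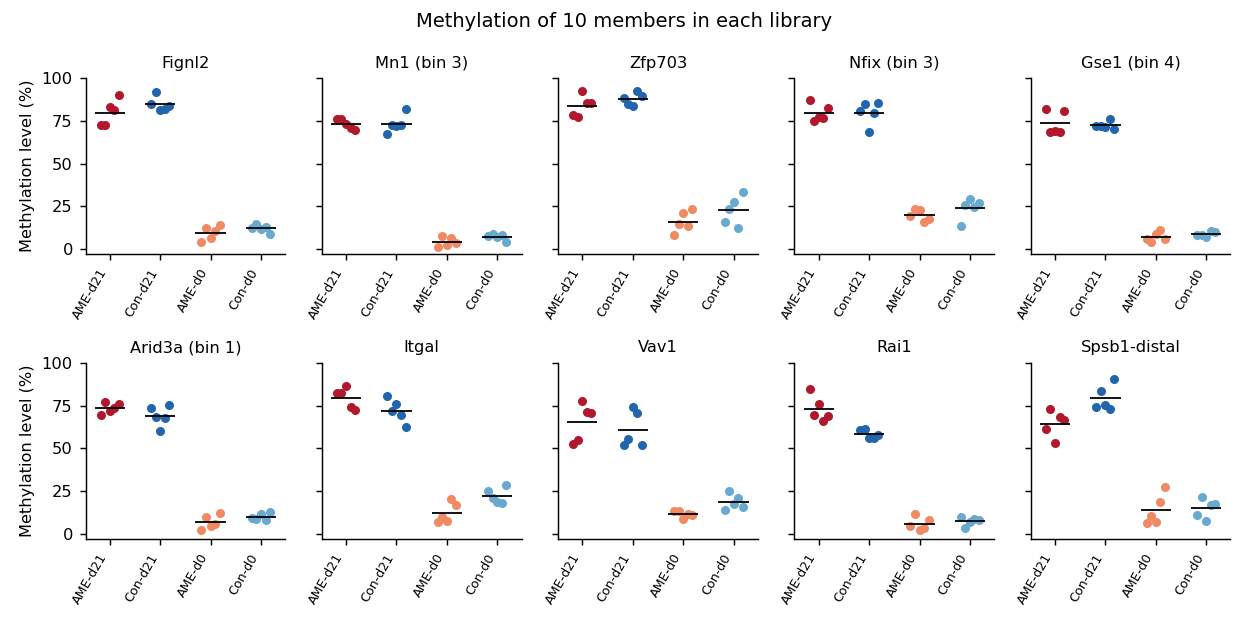
Methylation level of 10 members in each of the 5 libraries per group, in percent, with the mean as a line. In these 10 members every AME-d21 library lies above every AME-d0 library, and AME-d21 and Con-d21 separate without overlap at Rai1, where AME is higher, and at Spsb1-distal, where AME is lower.

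Introns held more members than any other location, and most members lay away from CpG islands. By the centre of the bin, 353 (48.0%) were intronic, 220 (29.9%) intergenic, 84 (11.4%) in coding exons, 45 in exons of untranslated regions and 33 in non-coding exons, where the other bins with 2 to 7 CpGs were 41.4% intronic, 36.7% intergenic and 10.8% in coding exons. Islands, found as windows of 500 bp rich in C, G and CpG, held 56 members (7.62%) against 18.9% of the other bins, and the 2 kb around them held 85 (11.6% against 8.36%). A TSS of a protein-coding gene lay within 1 kb of 138 members (18.8% against 24.2%), at 1 to 5 kb for 164 (22.3% against 15.3%), at 5 to 50 kb for 313 (42.6% against 36.1%) and farther away for 120 (16.3% against 24.5%). The members therefore were fewer than the other bins both close to a TSS and far from a coding TSS, and more at intermediate distance. This placement was not particular to gain. The 371 bins with 2 to 7 CpGs that fell by at least 40 points in controls had 17.3%, 24.8%, 47.4% and 10.5% at these distances. Of them, 58.5% were intronic and 1.89% lay in islands. Repeats covered a median of 0% of a member and 9.5% of the other bins, and 16 members (2.18%) were at least 50% repeat against 18.5%. The G and C content had a median of 54% in both.

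The 56 members in islands were lower at both ages than the 594 outside islands and shores, with medians of 60.2% against 72.1% in AME-d21 and 11.2% against 24.0% in AME-d0. Their AME gains were alike, with medians of 46.9 and 46.3 points. AME gains had medians of 46.0 to 48.0 points in the 5 kinds of location. The bins with at least 8 measured CpGs and the same control gain, 70 in number, differed in place from the members: 46 of the 70 (65.7%) lay in islands and 44 (62.9%) in coding exons. Islands are found by their CpG content, and the share over all bins with at least 8 CpGs was not computed. A difference due to the number of CpGs therefore cannot be told apart here.

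The gain reached beyond the member itself. Measured bins adjoining a member that were not members had a median AME gain of 36.5 points, and 380 of 400 (95.0%) were called higher in AME-d21. At 400 to 1000 bp the median was 19.5 points (65.4% called), at 1200 to 2000 bp 4.10 points (36.2%) and at 2200 to 5000 bp 6.06 points (35.5%), near the 33.5% of all bins. Adjoining bins can share reads. Members also adjoined each other: 182 of the 735 lay in 89 runs of 2 or 3 bins.

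**Figure D4:**
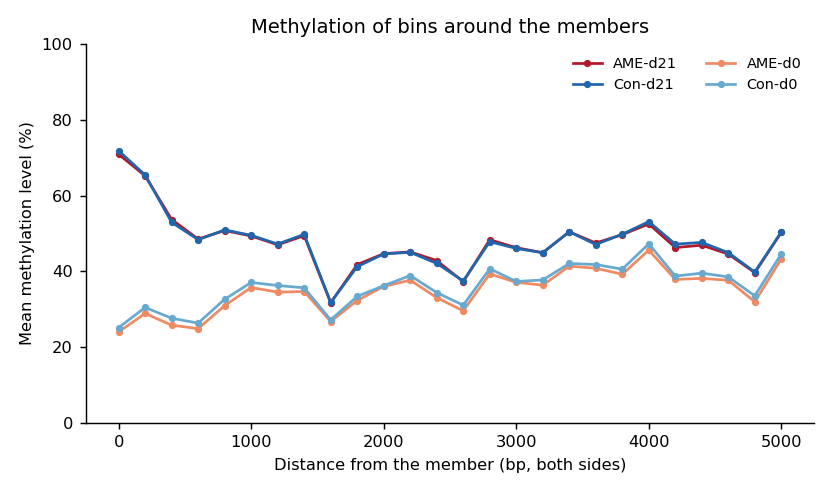
Mean methylation level, in percent, of the members (at 0) and of measured bins that were not members by distance on either side, in bp, for the 4 groups. The d21 lines (AME, Con) lie well above the d0 lines within about 1000 bp, and the gap narrows with distance.

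The members were spread over all 19 autosomes and many genes. Of the 735, 474 lay in 388 protein-coding genes, 77 of which held 2 or more and 17 held 3 or more. The long gene model Gm20388 on chromosome 8 (119910841 to 124345722) spans many other genes and held 14 members, 9 of them in the smaller genes Crispld2, Gse1, Zfpm1 and Cbfa2t3, and Gse1, Mn1, Nfix, Plekhh3 and Sept9 held 4 each. A gene with more measured bins has more chances to hold a member: Plekhh3 held 4 in 7 measured bins and Gse1 4 in 97.

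Gse1 encodes a coiled-coil protein found in LSD1 and histone deacetylase complexes. Its 4 members were spread along the gene and had AME-d21 means of 73.1%, 81.9%, 62.5% and 73.9% in order along the chromosome, against 6.70%, 31.2%, 18.7% and 7.06% in AME-d0. The first lay in a coding exon and the last in an intron. Nfix encodes a nuclear factor I transcription factor, and its 4 members had 77.7%, 73.8%, 79.8% and 54.8% in AME-d21, against 23.2%, 28.5%, 19.7% and 7.49% in AME-d0. The fourth Nfix member had the highest read count summed over CpGs of all members, with a median of 578. It had 57.6%, 58.4%, 52.5%, 48.3% and 57.2% in AME-d21, against 8.27%, 7.09%, 8.33%, 7.48% and 6.26% in AME-d0. The AME gains of these 8 members ran from 43.8 to 66.8 points.

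The 4 members of Mn1 lay in coding sequence within an island and had AME-d21 means of 62.2%, 72.5%, 73.2% and 84.4%, against 8.49%, 27.3%, 4.01% and 33.7% in AME-d0. The first of them was uneven at d21, at 38.6% to 79.2% over the AME livers. Plekhh3, which encodes a protein with pleckstrin homology and FERM domains, had 2 members beside its TSS and 2 about 2 kb away, with 66.1%, 60.3%, 87.7% and 78.3% in AME-d21, against 12.1%, 13.8%, 38.1% and 26.9% in AME-d0. The 3 members at Crispld2, which encodes a secreted protein, gained 39.9 to 58.5 points in AME offspring, and the other members of Gm20388 that lie in no smaller coding gene gained 33.9 to 49.8 points.

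Genes of blood cells were among the holders of members. The haematopoietic and myeloid list had members in or within 5 kb of 4 of its 34 measured genes, the megakaryocyte and platelet list at 3 of 18, the lymphoid list at 1 of 24 and the erythroid list at 1 of 27, where 3.36% of all measured protein-coding genes held one. By bins the shares were 1.75%, 3.49%, 0.658% and 0.690%, against 0.940% of the bins at protein-coding genes. These are counts of 1 to 4 genes, and Elane and Prtn3 of the first list count through the same bin. The lists were written with earlier results of these data known. All of these bins were called higher in AME-d21, as was every other member, so this is not particular to the lists.

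Vav1, the guanine nucleotide exchange factor of blood cells, had an intronic member at 52.6%, 54.7%, 77.5%, 71.1% and 70.6% in AME-d21, against 13.2%, 13.1%, 8.33%, 11.4% and 11% in AME-d0 (limma, adjusted p = 2.69e-06). The intronic member of Flt3, a receptor of haematopoietic progenitors, was at 67.6% ± 5.90 in AME-d21 and 20.8% ± 4.51 in AME-d0, and a member 117 bp from the TSS of Prtn3 and near Elane, both neutrophil granule proteases, was at 59.4% ± 6.56 and 15.8% ± 2.84 (SD, n = 5 each). Itgal, which is on none of the gene lists and not in the counts above, encodes the alpha chain of the leukocyte integrin LFA-1. Its member, 90 bp from the TSS, had 82.7%, 82.5%, 86.8%, 74.1% and 72.7% in AME-d21, against 6.90%, 10%, 7.34%, 20.5% and 17.1% in AME-d0. The AME-d21 and AME-d0 libraries did not overlap at Vav1 or Itgal.

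Cd79b, a chain of the B cell receptor, had an intronic member at 74.3% ± 5.81 in AME-d21 and 19.3% ± 4.46 in AME-d0 (SD, n = 5 each). At Vwf, which encodes the von Willebrand factor of platelets and endothelium, the member 350 bp from the TSS was at 80.9% ± 4.71 in AME-d21 and 22.8% ± 5.66 in AME-d0 (SD, n = 5 each). P2rx1, an ATP-gated channel of platelets, had 54.3% ± 6.51 in AME-d21 and 16.3% ± 4.99 in AME-d0 (SD, n = 5 each). A member at -97 bp from the TSS of the platelet glycoprotein gene Gp1bb, in an exon of Sept5, was at 51.3% ± 16.8 in AME-d21, with the widest spread of the members named here, and 15.4% ± 3.42 in AME-d0 (SD, n = 5 each). Zfpm1, the GATA1 cofactor FOG1, stood at 90.3% ± 4.36 in AME-d21 and 35.9% ± 7.15 in AME-d0 (SD, n = 5 each). Cbfa2t3, a corepressor of haematopoietic progenitors, is also on none of the gene lists. It was at 62.6% ± 7.92 in AME-d21 and 11.5% ± 4.32 in AME-d0 (SD, n = 5 each).

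Markers of the cell types of the liver were also read at their promoters (1 kb on either side of the TSS, with at least 3 measured CpGs), as values with no test. In AME offspring, promoters of 17 of 48 haematopoietic and myeloid genes were measured and averaged 15.03% to 16.4% over the d21 libraries, against 6.20% to 7.26% at d0, and 6 of the 17 gained at least 10 points. Endothelial promoters (14 of 31 genes) averaged 17.6% to 18.6% in AME-d21, against 5.57% to 7.96% in AME-d0, and 4 of the 14 gained at least 10 points. Kupffer cell promoters (8 of 21) averaged 9.37% to 11.6% in AME-d21 and 8.57% to 9.49% in AME-d0, and 1 of the 8 gained at least 10 points. Cholangiocyte promoters (11 of 16) averaged 6.27% to 6.84% in AME-d21 and 4.28% to 6.05% in AME-d0, and 1 of the 11 gained at least 10 points. Stellate cell promoters (16 of 24) averaged 8.25% to 11.02% in AME-d21, against 3.96% to 5.18% in AME-d0, and 3 of the 16 gained at least 10 points. Erythroid, megakaryocyte and lymphoid promoters were also higher in AME-d21, with means of 18.1%, 12.8% and 23.9%, against 9.46%, 4.23% and 15.7% in AME-d0. The 7 measured of 33 hepatocyte promoters were lower in AME-d21, with 13.3% to 17.3% in AME-d21, against 30.4% to 33.2% in AME-d0, and 4 of the 7 fell by at least 10 points. Housekeeping promoters were at 0.0984% to 0.281% in AME-d21 and at 0.106% to 0.244% in AME-d0. The share of all measured promoters that gained at least 10 points was not computed. Of all autosomal bins, 33.5% were called higher in AME-d21 by at least 10 points, so nothing is read from the counts of promoters. What part a change in the mixture of cells has in the gain of the members was not tested.

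No member lay at the hepatocyte, Kupffer cell, stellate cell, cholangiocyte or housekeeping genes, of which 23, 13, 20, 16 and 10 had measured bins (51, 37, 130, 72 and 28 bins). Over all measured protein-coding genes 3.36% held a member and 0.940% of their bins were members, and nothing is read from these zeros. Of 29 endothelial genes, 2 held a member (6.90%, and 1.10% of their bins). Stab1, a scavenger receptor of sinusoidal endothelium and macrophages, had 73.9% ± 7.64 in AME-d21 and 34.9% ± 5.97 in AME-d0, and the transcription factor gene Gata4 had 62.4% ± 2.72 and 19.4% ± 5.04 (SD, n = 5 each).

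Of 24 measured genes linked to fetal liver or its tumours, 2, Arid3a and Zhx2, held members (8.33%, against 3.36% of all measured protein-coding genes). By bins the share was 1.96%, against 0.940% of the bins at protein-coding genes. Arid3a encodes a DNA-binding protein of blood and embryonic cells, and its 2 adjoining intronic members, 421 and 621 bp from a TSS, had 69.4%, 76.9%, 71.7%, 73.7% and 76.0% in AME-d21, against 1.89%, 10%, 4.35%, 5.77% and 12.1% in AME-d0 for the first. The second had 70.3%, 64.3%, 56.2%, 53.5% and 59.6% in AME-d21, against 0%, 0%, 3.17%, 0% and 0% in AME-d0. In 4 of 5 AME-d0 livers no methylated read was seen there, at 32 reads or more per library summed over 2 CpGs. This allows a level of up to 9.38% if the reads are separate, and a higher one where both CpGs lie on the same reads. Zhx2, whose product represses alpha-fetoprotein in mouse liver after birth, had a smaller gain at its intronic member, with 52.2% ± 3.53 in AME-d21 and 23.4% ± 5.80 in AME-d0 (SD, n = 5 each).

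Of signalling genes, 5 of 47 measured Wnt, Notch, Hedgehog and Hippo genes (Fzd1, Tcf7l2, Maml3, Tead1 and Tead2) had members in or within 5 kb. So did 2 of 37 insulin, IGF and mTOR genes (Pik3cd and Rps6ka1). The shares were 10.6% and 5.41%, against 3.36% of all measured protein-coding genes, and rest on few genes. By bins they were 2.29% and 2.09%, against 0.940% of the bins at protein-coding genes. Rps6ka1 encodes the kinase RSK1 downstream of ERK. Its 3 members lay at 139, -61 and 231 bp from annotated TSSs and had 79.9%, 75.5% and 79.9% in AME-d21, against 22.7%, 13.3% and 17.5% in AME-d0. Tead1, a DNA-binding partner of YAP, had 2 adjoining intronic members with 75.2% and 66.97% in AME-d21, against 22.8% and 12.1% in AME-d0. The member at Tead2 lay in the neighbouring gene Dkkl1, and those at Pik3cd lay in exons of the neighbouring gene Clstn1. A member at a TSS of Arhgef10l and an intergenic one 10707 bp from a TSS of the formin gene Diaph1 gained 57.0 and 45.9 points in AME offspring.

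Of metabolic and nuclear genes, 1 of 40 measured genes of lipid metabolism, 1 of 35 of the cell cycle and 2 of 36 of DNA methylation and chromatin held a member (2.5%, 2.86% and 5.56%), against 3.36% of all measured protein-coding genes. By bins the shares were 0.823%, 0.613% and 0.656%, against 0.940% of the bins at protein-coding genes. The chromatin share thus lay above that of all genes when counted by genes and below it when counted by bins. In the lipid list it was Abcg5, which with Abcg8 exports sterols into bile. Its 2 adjoining members lay in a coding exon of Abcg5, by a TSS annotated for Abcg8. They had 48.8%, 54.4%, 55.9%, 43.3% and 55.6% in AME-d21, against 3.03%, 1.56%, 1.72%, 7.25% and 1.67% in AME-d0 for the first, and 51.8% ± 3.66 against 4.78% ± 1.03 for the second (SD, n = 5 each). All AME-d21 livers were partly methylated and all AME-d0 livers nearly unmethylated there. The chromatin genes included the dioxygenase gene Tet1 (82.9% in AME-d21, 33.7% in AME-d0), and the cell cycle gene was Ccnd3, which encodes cyclin D3 (73.4% and 24.4%).

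The members shared short sequences that the choice did not use. The ETS and PU.1 core GAGGAA, on either strand, was found in 246 members (33.5%), against 17.3% of the other bins with 2 to 7 CpGs. The RUNX core TGTGGT was in 166 (22.6% against 11.8%), the GATA core AGATAA in 91 (12.4% against 6.88%) and the AP-1 site TGACTCA in 37 (5.03% against 2.69%). PU.1, RUNX1 and GATA factors are regulators of blood cell genes. At least 1 of the ETS, RUNX and GATA cores was in 416 members (56.6% against 32.1%), and both the ETS and the RUNX core were in 52 (7.07% against 2.02%).

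Other motifs differed less or in the other direction. The E-box CAGCTG was in 122 members (16.6% against 12.4%) and the other E-box searched, CAGGTG, in 112 (15.2% against 19.3%). The motifs of liver factors were longer than the ETS, RUNX and GATA cores, and were rare in members and other bins. The forkhead core TGTTTAC was in 11 members (1.497% against 2.14%) and the HNF4 site CAAAGTCCA in 1 (0.136% against 0.230%). The 371 bins that fell by at least 40 points in controls had them in 4.85% and 1.62%. In bins free of repeats the shares for the ETS, RUNX and GATA cores were 32.4%, 20.8% and 11.1% in 404 members and 17.5%, 12.2% and 6.27% in the others. The AP-1 site was in 6.44% of these members and 3.13% of the others, so an excess was not limited to the ETS, RUNX and GATA cores. No motif searched contains another, and a match of letters does not show a bound site.

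Among bins that gained, the shares of the ETS, RUNX and GATA cores were higher in bands of larger control gain up to 40 points. The AP-1 site was not counted by gain. The ETS core was in 16.5% of bins with a gain of 0 to 10 points, 17.3% at 10 to 20, 23.9% at 20 to 30 and 30.2% at 30 to 40 points, and the RUNX core in 11.03%, 13.7%, 15.5% and 18.7%. The GATA core was in 6.39%, 7.10%, 9.42% and 11.6%, and also in 9.37% of bins that fell by more than 20 points. In those falling bins the ETS and RUNX cores were in 16.5% and 11.3%. At a control gain of at least 50 points the ETS, RUNX and GATA shares were 32.2%, 30.1% and 11.5%, so only the RUNX share lay above that of all members. Within the members, the AME gain had a median of 46.3 points with the ETS core, 47.5 with the RUNX core, 46.4 with the GATA core and 46.4 with none of them. Of the printed sequences, Rai1 held the ETS and RUNX cores and Gse1 the ETS core, while Fignl2, Mn1, Zfp703 and Nfix held none of these.

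**Figure D5:**
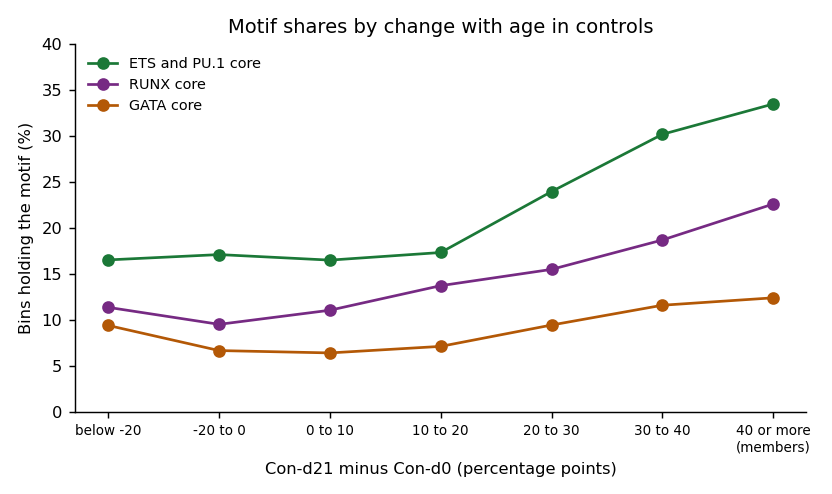
Share of bins with 2 to 7 CpGs that hold each motif on either strand, in percent, by the change with age in controls, in percentage points. The last point is the 735 members, with 33.5% for the ETS and PU.1 core, 22.6% for the RUNX core and 12.4% for the GATA core.

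Between AME and control offspring, no member passed the test at either age after adjustment over all bins. At d21 the AME mean was lower by a median of 0.90 points over the members (range -15.1 to 16.6), and 572 of 735 lay within 5 points. At d0 the median was -1.02 points (range -13.7 to 13.9), with 579 within 5 points. With limma, 0 members passed at d21, at d0 and for the interaction of age and AME (0% of all bins each), and the quasi-binomial logistic model also gave 0 at both ages. At an unadjusted p under 0.05, there were 27 members at d21 (5.05% of all bins, 4.1% of those with 2 to 7 CpGs), 37 at d0 (5.72% and 4.43%) and 40 for the interaction (5.12% and 4.29%), and 33 and 30 at d21 and d0 with the quasi-binomial model. Since the control values chose the members, nothing is read from these counts.

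The 5 AME-d21 libraries lay above the 5 Con-d21 libraries in 4 members (0.329% of all bins, 0.33% of those with 2 to 7 CpGs) and below them in 8 (0.334% and 0.367%). Gse1 (bin 1), in a coding exon, had 73.1%, 73.3%, 72.1%, 74.4% and 72.7% in AME-d21, against 53%, 58.9%, 49%, 65.6% and 56.2% in Con-d21, and 6.70% ± 3.34 in AME-d0, against 11.7% ± 2.81 in Con-d0 (SD, n = 5 each). The AME-d21 livers were close to each other there. At Rai1, a chromatin-associated regulator, the member at -579 bp from a TSS had 85.1%, 69.6%, 75.8%, 66.1% and 68.9% in AME-d21, against 60.5%, 61.2%, 56.4%, 56% and 57.8% in Con-d21. Tiam1, a Rac exchange factor, had 68.8% ± 5.65 and 55.4% ± 4.55 (SD, n = 5 each). Their limma adjusted p was 0.978 in each of the 3.

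Spsb1-distal, an intergenic member 50789 bp from the TSS of the SOCS box gene Spsb1, had 61.5%, 72.9%, 52.9%, 68.7% and 66.4% in AME-d21, against 74%, 83.8%, 75.2%, 72.9% and 90.6% in Con-d21. The closest libraries, AME-d21 replicate 2 and Con-d21 replicate 4, were at 72.86% and 72.94%, so the groups nearly met. Abca17, an ABC transporter gene, had 58.1% ± 6.85 in AME-d21 and 73.2% ± 7.51 in Con-d21, and Gm45833 49.2% ± 9.73 and 62.0% ± 3.45 (SD, n = 5 each). The adjusted p was again 0.978 with limma.

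At d0 the AME libraries lay above the control libraries in 2 members (0.144% of all bins, 0.134% of those with 2 to 7 CpGs) and below them in 4 (0.679% and 0.753%). Dnah11, an axonemal dynein gene, had 34.6% ± 4.71 in AME-d0 and 20.8% ± 5.62 in Con-d0, and Card19 had 42.9% ± 3.26 and 31.1% ± 4.27 (SD, n = 5 each). Below the controls, the second Arid3a member had 0.635% ± 1.42 in AME-d0, against 10.3%, 13.6%, 5.56%, 3.75% and 13.4% in Con-d0, an adjusted p of 0.846 with limma. Rps6ka1 (bin 2) had 13.3% ± 4.49 in AME-d0 and 20.7% ± 1.58 in Con-d0, and Vav1 had 11.4% ± 1.99 and 18.6% ± 4.47 (SD, n = 5 each). Of the 37 members with an unadjusted p under 0.05 at d0, 33 were lower in AME-d0. Of the 3731 bins with 2 to 7 CpGs at that p, 2795 were lower, so the direction was not particular to the members. Without AME-d0 replicates 1 and 3, which were low over the bins with 2 to 7 CpGs, 29 members reached that p at d0. Without AME-d21 replicate 4, 31 members reached it at d21. The share of all bins was not computed for these refits, and nothing is read from their counts.

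The members with the smallest AME gain were still called. Cpm, which encodes carboxypeptidase M, had 56.8%, 59.5%, 45.2%, 60.2% and 50% in AME-d21, against 25%, 38.3%, 41%, 37% and 16.7% in AME-d0, a gain of 22.7 points (limma, adjusted p = 0.00562). Dapp1, a B cell adaptor gene, gained 23.1 points, Grhl3, an epithelial transcription factor gene, 25.9, Dnah11 27.7 and Jag2-distal, an intergenic bin 15468 bp from the TSS of the Notch ligand gene Jag2, 28.2. Their control gains, 40.1 to 41.8 points, lay near the limit. The AME-d21 and AME-d0 libraries did not overlap in any of these 5 members.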

How the data were processed

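RRBS of liver DNA was analysed in 20 libraries, 5 in each of 4 groups that were taken from the sample labels. For each CpG, the authors deposited counts of methylated reads, of unmethylated reads and of both, not normalized, and the percent methylation derived from them. Tools listed in the submitters' processing notes are FastQC, Trim Galore, Bismark and BWA, with the build mm10. Deduplication and strand merging are not given in the sources used here.

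Counts were summed per 200-bp bin over CpGs that had 10 reads or more in each of the 20 libraries. The log2 ratio (methylated + 1)/(unmethylated + 1) of all 153940 autosomal bins was fitted with limma 3.58.1 in R 4.3.3, by age in AME offspring and by AME at each age, with Benjamini-Hochberg adjustment. A bin was called at an adjusted p under 0.05 and a difference of at least 10 points. A closed-form quasi-binomial logistic model served as an alternative, and both were tested on simulated data. Genes were taken from GENCODE M21 and sequences from GRCm38, read in Python 3.11.15 with numpy 2.4.6, pandas 2.3.3, scipy 1.17.1 and matplotlib 3.10.9. Other alternatives were the coverage minimum, the limit on the control gain, the pseudocount and each library left out.

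The members, the gene lists and the motifs were chosen with earlier results of these data known. The text names, apart from a few items that are not reported here, the 10 members with the largest control gain, up to 3 per gene list, those of the 5 genes with most members (Sept9, with as many as the last of these, is only counted), those at the limit, up to 5 close to a coding TSS, those where AME and Con do not overlap (up to 3 per direction and age) and the 5 with the smallest AME gain. Selenow was named after its values were seen, as were the genes listed without values. The p-values measure the spread between animals of 5 litters per group, and same-numbered libraries did not deviate together.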

Additional observations from a re-analysis of the deposited data

Results flagged for a closer look

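In groups of 5, a library was singled out when its gap to the nearest other library was more than 0.71 of the range of the group (Dixon's test). Of 276 groups examined, those of the 68 named members and of the mean over all members, 17 (6.16%) held such a library, and chance alone gives about 1 in 20. In AME-d21, Gm20388 (bin 2) stood at 58.9% in replicate 5 and Gm20388 (bin 3) at 69.5% in replicate 1. In Con-d21, Gm20388 (bin 3) stood at 44.8% in replicate 2, Plekhh3 (bin 1) at 84.2% in replicate 5 and the mean over the 735 members at 70.5% in replicate 2, against 71.9% to 72.3% in the other 4. In AME-d0, Mn1 (bin 2) stood at 18.4% and Abcg5 (bin 1) at 7.25% in replicate 4, as did Jag2-distal at 35.2%, while AI467606 stood at 7.76% in replicate 1, Crispld2 (bin 3) at 56.2% in replicate 5, P2rx1 at 25% in replicate 2 and Arid3a (bin 2) at 3.17% in replicate 3, where the other 4 had 0%. In Con-d0, Tacc2 stood at 14.8% and Gse1 (bin 2) at 24.8% in replicate 1, Stab1 at 44.9% and Gp1bb-proximal at 8.33% in replicate 2, and Abcg5 (bin 2) at 2.13% in replicate 3.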

How the results depend on the processing

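All 735 members were called higher in AME-d21 than in AME-d0 under each alternative that kept them measured, including the replicate number as a block (735 with the replicate block), a pseudocount of 0.5, limma on percent methylation, the quasi-binomial model and each AME library left out. Of all autosomal bins, 32.8%, 32.3%, 30.8% and 27.6% were called higher with the first 4 of these. With single AME libraries left out the share was 28.5% to 33.5%. With a minimum of 20 reads, 396 of the 735 bins still held measured CpGs and all 396 were called, against 31.7% of all bins measured at that minimum. The median AME gain was 45.8 to 47.2 points with single libraries left out. The number of members itself depends on the limits: 1135 bins met the rule at 5 reads (672 of the members among them), 308 at 20 reads (260 shared), 2031 at a control gain of 30 points and 183 at 50 points, while leaving out single control libraries gave 710 to 816 and averaging the percents of the CpGs gave 721. Between AME and control offspring and for the interaction, every alternative run gave 0 calls (the quasi-binomial model was not run for the interaction), and with single libraries left out 22 to 34 members had an unadjusted p under 0.05 at d21, 28 to 43 at d0 and 29 to 45 for the interaction. With the replicate block these were 23, 37 and 38, and no block changed a call. The share of all bins at this unadjusted p was not computed for the refits, and nothing is read from these counts. No correlation of same-numbered libraries was above 0.1. The gain of each of the 68 named members kept its direction and an adjusted p under 0.05 in all 1129 refits (highest 0.0338). For the members named between AME and control offspring, no adjusted p was under 0.744 in 149 refits. Shares of motifs and locations were recomputed for 5 other limits: the RUNX share moved to 19.2% at 20 reads and to 30.1% at a gain of 50 points, beyond its counting interval, the intron share to 44.2% and 42.1%, and the share more than 1 kb from a coding TSS to 76.5% at a gain of 50 points. Summed over its CpGs, the lowest number of reads of a member in a library was 20, which limits the precision of single values and of small differences between AME and control offspring.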
